A study of Mus musculus with 8 samples.

Results

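The DMXAA response of mouse pancreatic islets was compared between wild-type mice and mice labelled as STING knockouts, gene by gene, as the difference between the response in knockout-labelled islets and the response in wild-type islets. This difference is the interaction of treatment with genotype label. It was computed from all 8 of the 8 libraries, 2 in each of 4 groups, over 17055 genes with enough counts of the 54532 gene identifiers in the files. A negative difference means that the change after DMXAA was lower in knockout-labelled islets, and a positive difference means that it was higher. Of the 17055 genes, 204 (1.2%) differed in their response at an adjusted p under 0.05 (edgeR quasi-likelihood test, Benjamini-Hochberg adjustment over all genes tested). The response was more negative in knockout-labelled islets for 90 of them (0.528%) and more positive for 114 (0.668%). The 90 were led by interferon-stimulated genes, chemokines and brakes on NF-kB that rose in wild-type islets. The 114 were led by Dusp6, Esm1, Plk2 and Kcnj2, which fell in wild-type islets and stood higher with DMXAA than without it in knockout-labelled islets. Genes of blood vessel cells were also among the 114, and part of those passed the test as falls in wild-type islets.

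STING is an adaptor of the endoplasmic reticulum that binds cyclic dinucleotides made by the DNA sensor cGAS. Bound STING recruits the kinase TBK1, which activates the transcription factor IRF3, and it also activates NF-kB. IRF3 and NF-kB switch on interferon beta and chemokines, and secreted interferon acts through its receptor on a second wave of genes whose promoters hold the interferon-stimulated response element. DMXAA, a synthetic ligand of mouse STING, was first studied as a drug that disrupts tumour blood vessels. Islets hold endocrine cells, mostly insulin-producing beta cells, together with capillary endothelium, stellate cells and macrophages.

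All islets came from mice of 25 to 30 weeks, wild type or Sting-/-, were picked by hand after collagenase digestion, and recovered overnight in culture. They were then kept for 3 h with the solvent DMSO or with DMXAA at 50 µg/mL. The 4 groups were wild-type DMSO, wild-type DMXAA, knockout-labelled DMSO and knockout-labelled DMXAA. The sex of the mice, the number of mice behind each library, whether islets were pooled, and which part of the gene the knockout allele removes are details that the sources used here do not give. Libraries were made from polyA+ RNA and held 15624020 to 19601850 counts each.

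Sting1, the gene named in the genotype label, was low in every library, and no drop went with the knockout label. Wild-type islets gave 39 and 41 counts under DMSO and 23 and 39 after DMXAA, and knockout-labelled islets gave 48 and 19, then 35 and 27. Gene-level counting cannot reveal a partial deletion, so every direction by genotype below rests on the labels. The endocrine identity of the samples was clear in the counts, with Ins2 taking 11.5% to 18.6% and Gcg 1.62% to 2.15% of each library.

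The 250 bases before the start site of 7 genes on which the results turn are shown first, because the shares of promoters with an interferon response element, and to a lesser extent with an AP-1 match, were not alike in the more-negative and the more-positive genes. Sequences are from RefSeq on GRCm38.p6, the same assembly as mm10, and are read 5′ to 3′ on the strand of the gene. Their positions are Ifit1 chr19:34640639-34640888 (plus strand), Isg15 chr4:156200819-156201068 (minus strand), Rsad2 chr12:26456453-26456702 (minus strand), Cxcl10 chr5:92348890-92349139 (minus strand), Nfkbia chr12:55492648-55492897 (minus strand), Dusp6 chr10:99262981-99263230 (plus strand), Kdr chr5:75978456-75978705 (minus strand). Capitals mark matches, in either orientation, to the interferon response element GAAANNGAAA, the NF-kB pattern GGGANNNNCC or the AP-1 pattern TGANTCA.
Ifit1: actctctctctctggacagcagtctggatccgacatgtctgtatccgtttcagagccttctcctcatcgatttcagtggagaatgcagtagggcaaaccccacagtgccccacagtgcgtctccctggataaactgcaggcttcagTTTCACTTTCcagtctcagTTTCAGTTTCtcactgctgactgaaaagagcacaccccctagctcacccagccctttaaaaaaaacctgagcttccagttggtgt
Isg15: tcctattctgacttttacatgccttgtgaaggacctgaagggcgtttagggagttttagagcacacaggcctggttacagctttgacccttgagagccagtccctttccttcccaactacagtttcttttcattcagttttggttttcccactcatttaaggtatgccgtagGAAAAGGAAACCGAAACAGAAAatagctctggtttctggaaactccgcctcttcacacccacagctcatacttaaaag
Rsad2: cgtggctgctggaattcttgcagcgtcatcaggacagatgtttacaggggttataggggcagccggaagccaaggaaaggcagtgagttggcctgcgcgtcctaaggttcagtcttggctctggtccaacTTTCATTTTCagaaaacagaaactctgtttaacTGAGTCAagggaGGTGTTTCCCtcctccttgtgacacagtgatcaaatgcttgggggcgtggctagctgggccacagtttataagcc
Cxcl10: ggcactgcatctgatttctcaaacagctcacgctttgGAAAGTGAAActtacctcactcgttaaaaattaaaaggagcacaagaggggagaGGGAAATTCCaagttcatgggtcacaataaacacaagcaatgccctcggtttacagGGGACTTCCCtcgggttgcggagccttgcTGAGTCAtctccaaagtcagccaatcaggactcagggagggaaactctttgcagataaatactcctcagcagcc
Nfkbia: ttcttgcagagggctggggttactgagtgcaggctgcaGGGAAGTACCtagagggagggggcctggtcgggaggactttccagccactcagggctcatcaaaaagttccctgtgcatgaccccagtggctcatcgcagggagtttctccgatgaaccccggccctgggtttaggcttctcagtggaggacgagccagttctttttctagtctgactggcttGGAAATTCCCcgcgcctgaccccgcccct
Dusp6: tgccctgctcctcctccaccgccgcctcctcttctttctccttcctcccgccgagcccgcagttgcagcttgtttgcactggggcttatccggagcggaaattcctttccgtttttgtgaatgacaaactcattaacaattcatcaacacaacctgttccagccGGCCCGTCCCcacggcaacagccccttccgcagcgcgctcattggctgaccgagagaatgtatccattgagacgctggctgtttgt
Kdr: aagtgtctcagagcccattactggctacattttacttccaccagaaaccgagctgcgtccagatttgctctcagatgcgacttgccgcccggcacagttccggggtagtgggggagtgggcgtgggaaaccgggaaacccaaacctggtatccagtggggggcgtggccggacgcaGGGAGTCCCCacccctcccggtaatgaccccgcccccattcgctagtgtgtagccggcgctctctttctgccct

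Distances are counted backward from the start site. Ifit1 held interferon response elements that begin at -104 and -85, and Isg15 held overlapping ones at -78, -72 and -66. Rsad2 and Cxcl10 each held all of these motif types, with the interferon response element at -120 in Rsad2 and at -213 in Cxcl10. Nfkbia, the gene of the NF-kB inhibitor IkB-alpha, held NF-kB patterns at -212 and -29 and no interferon response element. In Dusp6 and Kdr the only matches were to the NF-kB pattern, at -86 and -74.

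Counted from 250 bases before to 50 bases after each start site, on both strands, 28 of the 70 more-negative genes with a promoter sequence (40%) held the interferon response element. It was held by 6 of 87 more-positive genes (6.9%), by 451 of 11812 genes tested (3.8%), and by 3.4% of all 32851 promoters. The NF-kB pattern was common everywhere, at 32.9% of the more-negative genes, 32.2% of the more-positive genes, 30.2% of genes tested and 20.7% of all promoters. AP-1 matches were in 15.7%, 5.7% and 6.6% of these 3 sets of genes and in 7.8% of all promoters. The CRE pattern TGACGTCA was in 1.4%, 3.4% and 3.5% of them and in 1.8% of all promoters. These shares are a description without a test, and a match to letters is not a bound site.

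Every one of the 90 genes with a negative difference had a wild-type estimate above 0, and every one of the 114 with a positive difference had a wild-type estimate below 0. They are called lost rises and lost falls here. The difference that chose these genes contains both the wild-type and the knockout-labelled estimate, so signs, medians and intervals of either arm within these sets are a description and no separate evidence. Among lost rises the median log2 fold change was 2.83 in wild-type and -0.16 in knockout-labelled islets, close to no change. Among lost falls it was -0.93 in wild-type and 0.78 in knockout-labelled islets, so that the median crossed 0. Over all genes tested both medians were -0.001.

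**Figure D1:**
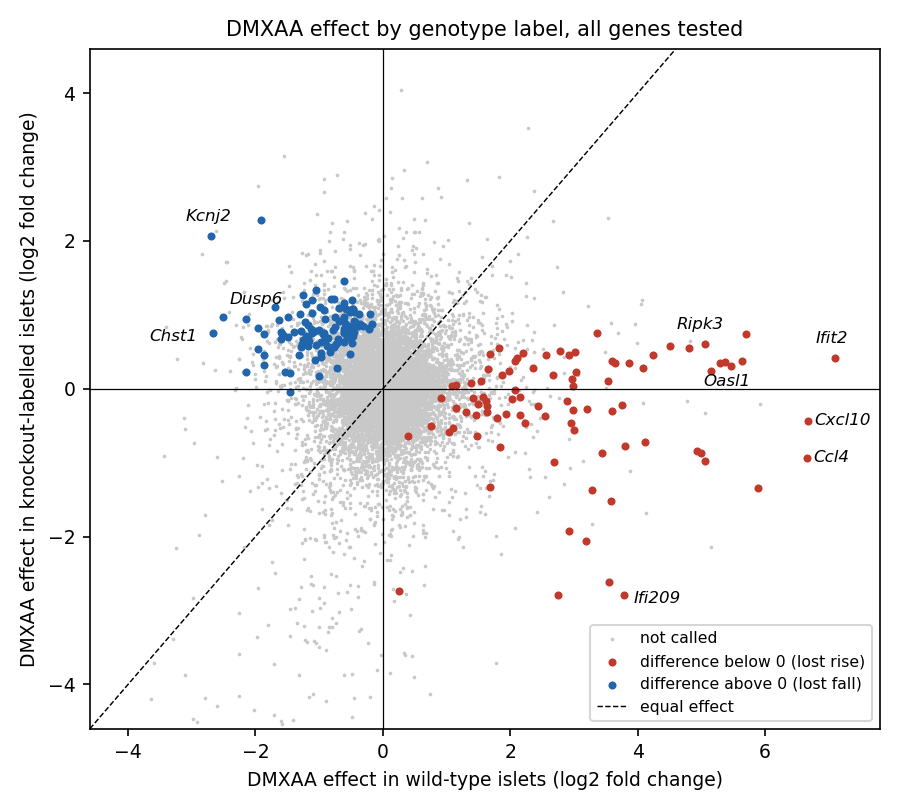
DMXAA effect in wild-type islets (horizontal axis, log2 fold change) against the effect in knockout-labelled islets (vertical axis, log2 fold change), with 1 point per gene tested, leaving out genes with a group at 0 counts and points beyond the axes. The lost rises (red) spread along the horizontal axis out to Ifit2 at 7.09, while the lost falls (blue) sit to the left of 0 and almost all above 0.

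The antiviral effectors, proteins that block viral RNA, translation or budding, held the most called genes of any list. Of 45 measured members, 18 responded less in knockout-labelled islets and none responded more, and 33 rose in wild-type islets while none rose in knockout-labelled ones. Over all genes tested 1.11% rose in wild-type and 0.164% in knockout-labelled islets, so none of 45 in the latter is close to the overall share. The set's median difference was -1.58. Oasl1, which restrains translation of the interferon regulator IRF7, had 6.88 and 6.04 CPM (counts scaled to library size) in wild-type DMSO and 255 and 249 CPM in wild-type DMXAA. In knockout-labelled islets Oasl1 was at 4.46 and 3.34 CPM without and at 4.55 and 5.32 CPM after DMXAA. The wild-type DMXAA libraries stood far above the other 6, which lay close together. The difference was -4.94 (SE 0.28, adjusted p = 1.84e-06).

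The IFIT genes, which encode proteins that hold back foreign RNA, followed the same pattern. Ifit1 went from 11.1 and 13.5 CPM to 427 and 450 CPM in wild-type islets, against 10.3 and 9.45 CPM and then 14.4 and 8.89 CPM in knockout-labelled islets. Its difference was -4.91 (SE 0.30, adjusted p = 2.91e-06). Ifit2 had the highest wild-type fold change of the lost rises, from 1.89 and 4.77 CPM to 471 and 448 CPM, and stayed between 1.41 and 2.61 CPM in all knockout-labelled libraries. The Ifit2 difference was -6.68 (SE 0.56, adjusted p = 0.000113), and that of Ifit3 was -5.15 (SE 0.35, adjusted p = 5.53e-06).

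Rsad2, which encodes viperin, and its neighbour Cmpk2, a nucleotide kinase, also kept DMSO levels in knockout-labelled islets. Rsad2 rose from 28.4 and 31 CPM to 1440 and 1500 CPM in wild-type islets. In knockout-labelled islets it was lower already under DMSO, at 13.9 and 8.82 CPM, and was at 19.8 and 9.47 CPM with DMXAA. This genotype difference under DMSO did not pass the test (log2 -1.39, adjusted p = 0.141). Cmpk2 reached 350 CPM in both wild-type DMXAA libraries, whereas the other 6 had 17.3 to 29.6 CPM. Its knockout-labelled estimate of 0.35 had a 95% interval of 0.003 to 0.70, so that a small rise there lies within the interval and a rise of the wild-type size, 3.65, does not. Mx1 and Mx2, dynamin-like GTPases that trap viral nucleocapsids, differed by -3.78 and -3.93, and Parp14, an ADP-ribosyltransferase, by -2.26 (SE 0.23, adjusted p = 0.000189). Slfn2, a schlafen family gene of immune cells, had a difference of -4.31 (SE 0.39, adjusted p = 7.45e-05) with levels of 4.33 and 3.9 CPM under DMSO and 2.13 and 2.4 CPM with DMXAA in knockout-labelled islets.

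The interferon-inducible GTPases, which coat and break open the compartments of intracellular microbes, had the most negative median of the lists with more than 1 tested gene, at -2.66. Of 18 measured members 10 were called, all more negative, and all 18 differences were below 0. The count was 6 without wild-type DMSO replicate 2 or knockout-labelled DMSO replicate 1, and also 6 with the acinar covariate described below. Gbp2 was at 85.4 and 85.3 CPM in wild-type DMXAA and between 5.26 and 11 CPM in the other 6 libraries. Irgm1, which regulates autophagy of microbes, rose in wild-type islets from 24.9 and 18 CPM to 82.7 and 91.7 CPM and stood between 22.4 and 28.6 CPM in knockout-labelled islets. The differences were -3.98 (SE 0.36, adjusted p = 7.45e-05) for Gbp2 and -2.16 (SE 0.26, adjusted p = 0.000686) for Irgm1. Members of this family are similar in sequence and lie in clusters, so reads may be split between copies. Isg15, the ubiquitin-like modifier, was called among the 6 genes of ISG15 conjugation, and 4 of the 6 rose in wild-type islets. Without knockout-labelled DMXAA replicate 1, 3 of the 6 were called. Isg15 was at 103 and 97.3 CPM in wild-type DMXAA and between 1.53 and 5.38 CPM elsewhere (difference -4.46, SE 0.54, adjusted p = 0.00168).

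Upstream of these effectors, 7 of 28 measured sensors, kinases and interferon signal transducers responded less in knockout-labelled islets, and none responded more. This count was 2 to 6 over the fits without 1 library. It was 2 without knockout-labelled DMSO replicate 2, 3 without knockout-labelled DMSO replicate 1 or wild-type DMXAA replicate 2, and 4 without wild-type DMXAA replicate 1. Those called were sensors and transcription factors that interferon itself induces, and the kinase and adaptor genes were not among them. Ifih1, the RNA sensor MDA5, rose from 35.6 and 28.7 CPM to 159 and 172 CPM in wild-type islets and lay between 23.1 and 32.6 CPM in knockout-labelled islets (difference -2.08, SE 0.24, adjusted p = 0.000525). Irf1, a transcription factor of the interferon response, differed by -2.19 (SE 0.23, adjusted p = 0.000246). Its starting level was not the same, since it had 38.6 and 50.8 CPM in wild-type DMSO and 89.2 and 85.9 CPM in knockout-labelled DMSO, a log2 difference of 0.97 (adjusted p = 0.0289). With DMXAA, Irf1 was at 165 and 144 CPM in wild-type and at 65.6 and 67.7 CPM in knockout-labelled islets. Stat2, which carries the interferon signal to the nucleus, differed by -1.61. The Stat2 call was lost in 4 of the 8 fits that leave out 1 library, without wild-type DMSO replicate 1, wild-type DMXAA replicate 2 or either knockout-labelled DMSO library (highest adjusted p = 0.0751). Tbk1, Irf3 and Mavs had differences of -0.29, -0.51 and 0.008, with adjusted p of 0.802, 0.561 and 0.995.

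Ifnb1, the interferon beta gene, had 536 and 261 counts in wild-type islets after DMXAA and 0 in both libraries under DMSO. Knockout-labelled islets gave 1 and 0 counts under DMSO and 3 and 0 after DMXAA. In CPM the wild-type DMXAA libraries were at 28.8 and 13.6 and the highest of the other 6 at 0.145. With a group at 0 counts the interaction is poorly determined, and it did not pass the test (adjusted p = 0.632) although the wild-type effect did (adjusted p = 4.36e-06). Ifnb1 is therefore not among the 204 genes.

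The genes of the Ifi200 family, which encode DNA-binding proteins of the AIM2-like receptor group, showed an added feature in that several had lower levels with DMXAA than without it in knockout-labelled islets. Ifi209 rose from 1.26 and 0.59 CPM to 13.5 and 11.9 CPM in wild-type islets. In knockout-labelled islets it went from 2.53 and 2.66 CPM to 0.532 and 0.175 CPM, a fall of its own (log2 -2.79, adjusted p = 0.04), and the difference was -6.58 (SE 0.62, adjusted p = 0.000116). Ifi213 had knockout-labelled levels of 2.13 and 1.7 CPM under DMSO and 0.484 and 0.409 CPM with DMXAA, which did not pass the test (adjusted p = 0.121). Ifi203 and Ifi204 had knockout-labelled estimates of 0.03 and 0.49. The Ifi203 call was lost without knockout-labelled DMSO replicate 2 (adjusted p = 0.0696). These genes are near-copies of each other in 1 cluster, so their counts are uncertain, and lymphocyte markers fell in the same libraries, as given below.

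Among secreted signals, 6 of 21 measured chemokines responded less in knockout-labelled islets and 1, Cxcl12, responded more. Cxcl10, a chemokine that attracts activated T cells, rose in wild-type islets from 7.78 and 2.95 CPM to 573 and 521 CPM. In knockout-labelled islets it had 9.33 and 5.88 CPM under DMSO and 5.71 and 5.44 CPM after DMXAA, and the difference was -7.12 (SE 0.54, adjusted p = 0.000383). Ccl4, an attractant of monocytes and T cells, had the most negative difference of the lost rises without a group at 0 counts, -7.59 (SE 0.67, adjusted p = 7.45e-05). It was at 50.4 and 38.1 CPM in wild-type DMXAA and at no more than 1.64 CPM in any other library. Its neighbour Ccl3 differed by -5.87 (SE 0.70, adjusted p = 0.00111), and Cxcl1, an attractant of neutrophils, by -2.81 (SE 0.34, adjusted p = 0.000686). Ccrl2, a receptor that presents the attractant chemerin, differed by -3.42 (SE 0.29, adjusted p = 5.81e-05).

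Of 18 cytokines measured, 2 were called, both with a lost rise. Tnfsf10, the death ligand TRAIL, was at 40 and 40.5 CPM in wild-type DMXAA and between 5.86 and 9.48 CPM in the other 6 libraries (difference -1.69, SE 0.27, adjusted p = 0.00615). The Tnfsf10 call was lost without knockout-labelled DMSO replicate 2 (adjusted p = 0.0839). Tnf was at 43.4 and 14.5 CPM in wild-type DMXAA, where the libraries differ between themselves, and at 0.393 to 2.55 CPM in the others (difference -7.22, SE 1.26, adjusted p = 0.0428). The Tnf call was lost in 5 of 8 fits without 1 library, those without either wild-type DMSO library, knockout-labelled DMSO replicate 2 or either knockout-labelled DMXAA library (highest adjusted p = 0.296).

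Inhibitors of inflammation were called beside the signals they restrain. Of 25 measured brakes on NF-kB and cytokine signals, 6 responded less in knockout-labelled islets and 24 had a difference below 0. Tnfaip3, which encodes the ubiquitin-editing enzyme A20, rose in wild-type islets from 15.3 and 14.4 CPM to 76.8 and 63.2 CPM. It was at 19.1 and 21.4 CPM and then 16.7 and 12.7 CPM in knockout-labelled islets, with a difference of -2.69 (SE 0.26, adjusted p = 0.000132). Nfkbia began higher in knockout-labelled islets, at 83.2 and 84.6 CPM against 47.3 and 50.7 CPM under DMSO, and this genotype difference stood just outside the threshold (log2 0.78, adjusted p = 0.0531). With DMXAA Nfkbia was at 164 and 137 CPM in wild-type and at 76.7 and 73.3 CPM in knockout-labelled islets (difference -1.78, SE 0.21, adjusted p = 0.000525). Cd274, the checkpoint ligand PD-L1, went from 28.6 and 23.2 CPM to 111 and 107 CPM in wild-type islets and from 20.1 and 18.6 CPM to 28 and 22 CPM in knockout-labelled islets, where the change did not pass (adjusted p = 0.684), and its difference was -1.70 (SE 0.24, adjusted p = 0.00243). Socs1, a feedback inhibitor of Janus kinases, differed by -3.28, and Acod1, which makes itaconate, by -4.84.

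Ripk3, the kinase of necroptosis, was the only one of 24 cell death genes with a lost rise. It was at 69.3 and 41.8 CPM in wild-type DMXAA and between 1.41 and 2.76 CPM in the other 6 libraries, a difference of -4.25 (SE 0.50, adjusted p = 0.000614). Its partner Mlkl differed by -0.84 (adjusted p = 0.443). Ppp1r15a, which encodes the stress phosphatase subunit GADD34, was the only one of 29 genes of the unfolded protein and integrated stress responses that was called (difference -1.70, SE 0.26, adjusted p = 0.00453). Tap1, which feeds peptides to MHC class I, was the only one of 21 genes of that route (difference -1.42, SE 0.25, adjusted p = 0.0103), although 18 of the 21 differences were below 0. The Tap1 call was lost without wild-type DMXAA replicate 1 or knockout-labelled DMSO replicate 1 (highest adjusted p = 0.103). Neurl3, a ubiquitin ligase gene that was in none of the lists, had one of the smallest p-values of all (difference -4.83, SE 0.31, adjusted p = 3.51e-06).

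**Figure D2:**
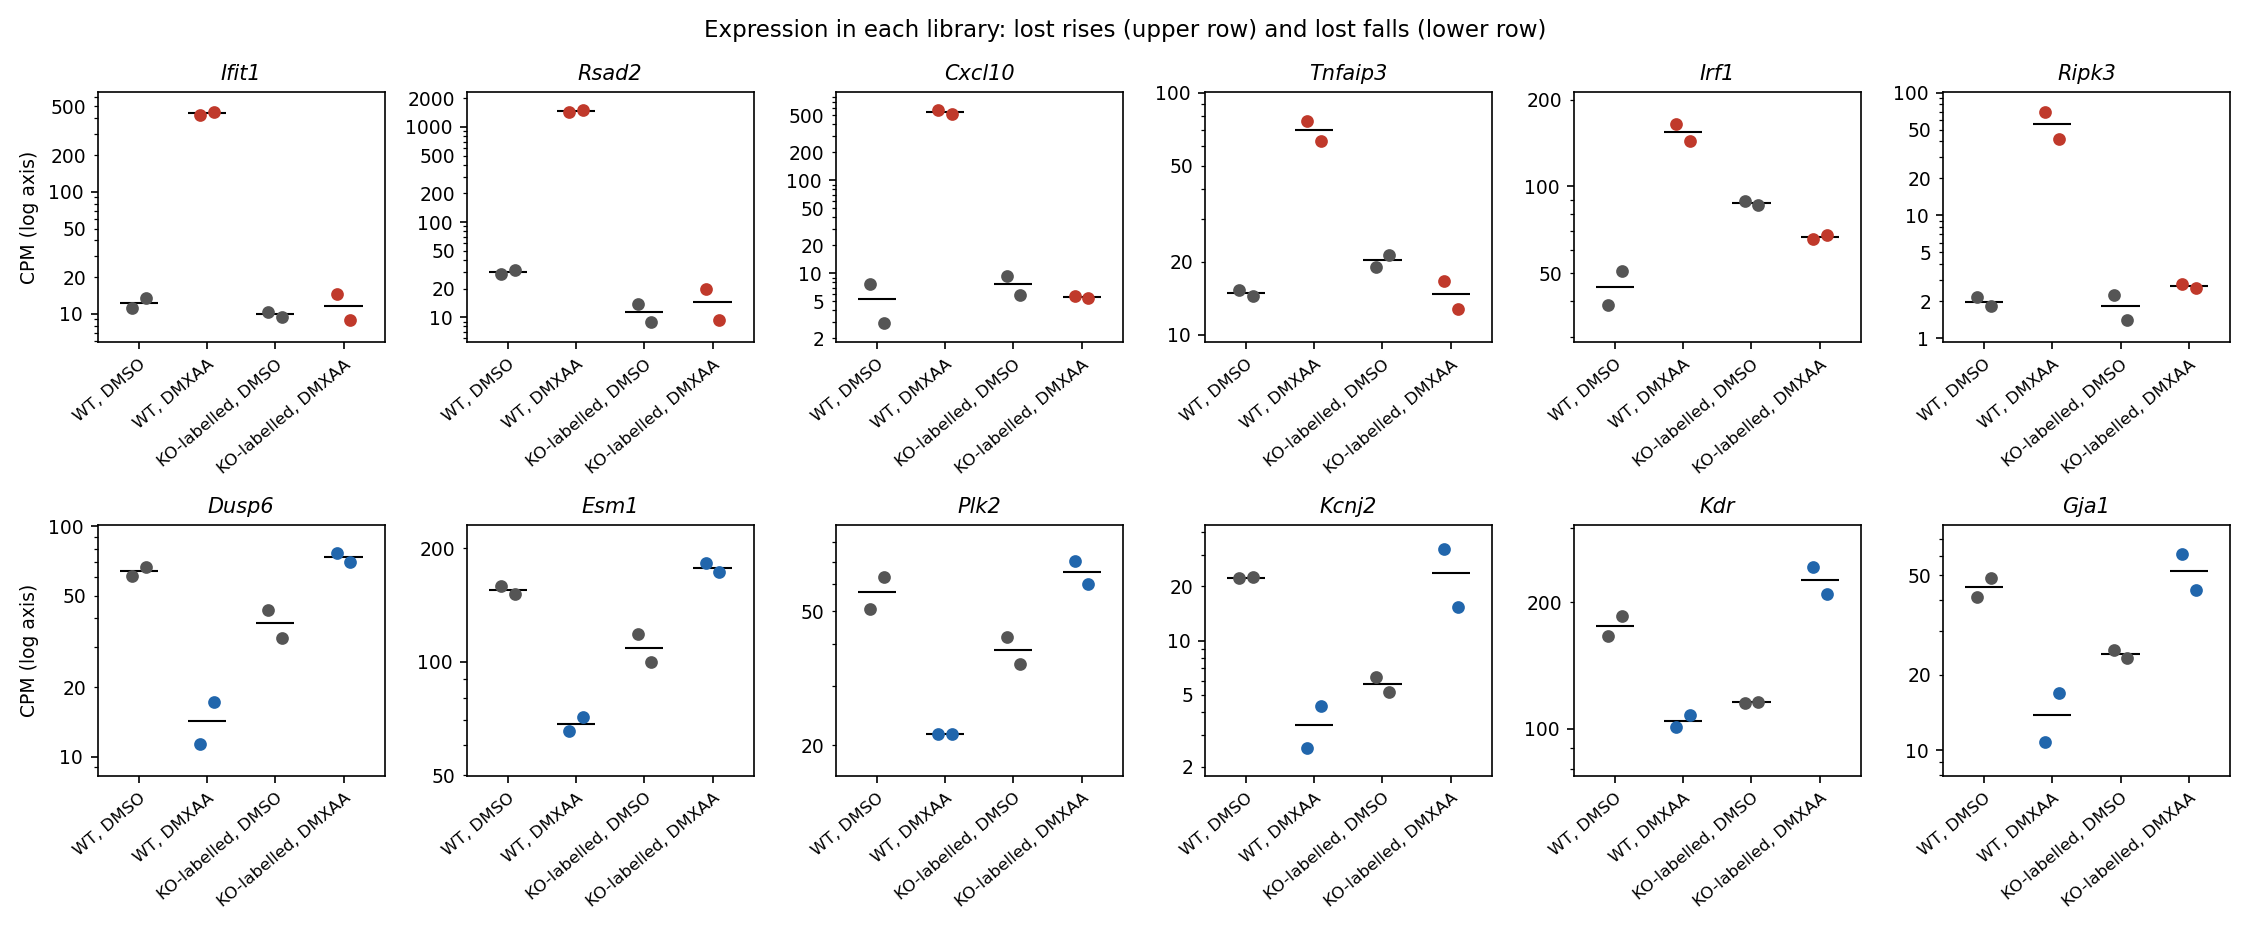
CPM on a log axis for each library of 6 lost rises (upper row) and 6 lost falls (lower row), with 1 point per library, a horizontal bar at the mean of the 2 libraries of a group, DMSO in grey and DMXAA in colour. In the upper row only the wild-type DMXAA points stand high, while in the lower row the wild-type DMXAA points are lowest and the knockout-labelled points are higher with DMXAA than with DMSO.

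Described as a class, with values that also chose them, most lost rises stood out in the wild-type DMXAA libraries. Over all 17055 genes tested, that group lay farthest from the other 3 in 4464. It did so in 84 of the 90 lost rises. Both its libraries stood above all other 6 in 85 of the 90, a count that was not made over all genes. The wild-type change made up a median of 93.0% of the difference, and more than 75% of it in 73 genes. The 95% interval of the knockout-labelled effect held 0 in 64 of the 90. Estimates there were below 0 in 52 genes and above 0 in 38, and 3 passed the test, Ifi209, Arhgap4 and Ighg2c, all as falls. Arhgap4 had a wild-type estimate of 0.25 and Ighg2c rested on 298 and 185 counts in knockout-labelled DMSO, so neither was a rise that was lost, and the Ighg2c call was lost without either wild-type DMSO library or wild-type DMXAA replicate 1. Leaving out Ighg2c, which has a group at 0 counts, differences ran from -7.59 to -1.03.

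**Figure D3:**
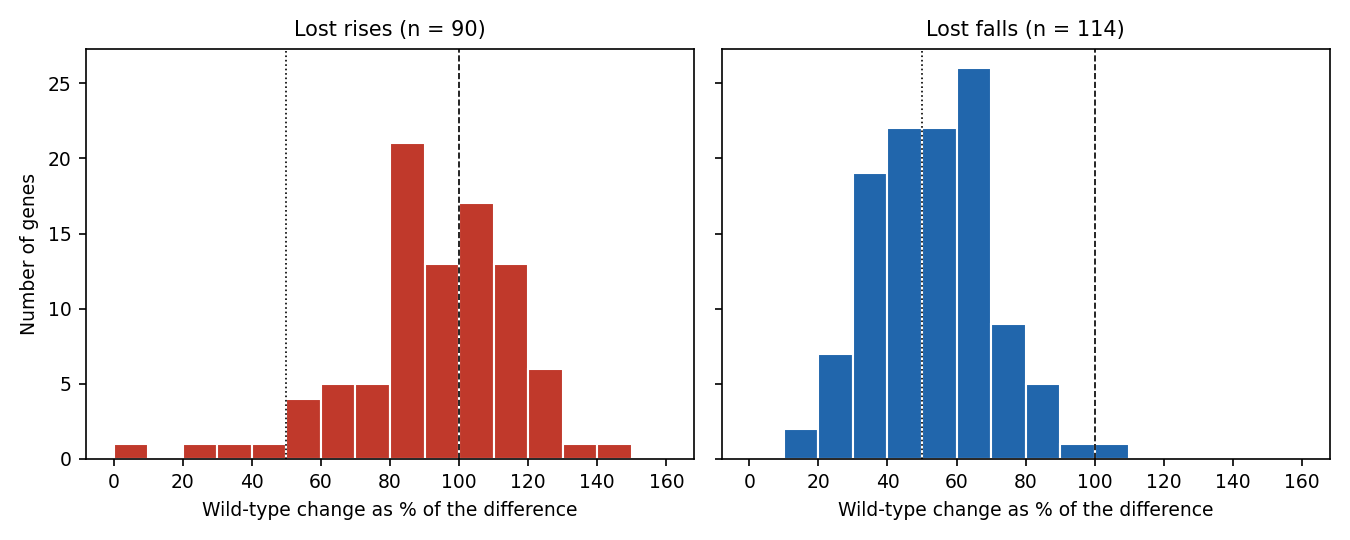
Number of genes by the wild-type change as a percentage of the difference between genotype labels, for the 90 lost rises and the 114 lost falls. The dashed line at 100% marks genes without change in knockout-labelled islets and the dotted line at 50% marks equal and opposite changes, and the median is 93.0% for lost rises and 55.3% for lost falls.

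The lost falls are described in the same way, and the selection on the difference favours a knockout-labelled estimate above 0 among them. Their differences ran from 0.98 to 4.76 with a median of 1.68, and the wild-type change made up a median of 55.3% of it, more than 75% in 9 of the 114 genes. In 113 of the 114 the knockout-labelled estimate was above 0, and its 95% interval lay above 0 in 102. Knockout-labelled DMSO was below wild-type DMSO in 109 of the 114, with a median log2 difference of -0.56. This genotype difference passed the test in 3 of them. The difference that chose the genes holds both DMSO groups, so the selection favours a lower knockout-labelled DMSO level too. Over all 17055 genes tested, the group lying farthest from the other 3 was wild-type DMXAA in 4464, knockout-labelled DMXAA in 3948 and knockout-labelled DMSO in 3494. Among the 114 lost falls it was wild-type DMXAA in 59 genes, knockout-labelled DMXAA in 39 and knockout-labelled DMSO in 11. In these chosen genes the estimates mostly combine a lower level with DMXAA in wild-type islets and a higher one in knockout-labelled islets. The selection favours this pattern, which is no separate evidence. By the test, 54 of the 114 passed in the wild-type arm and 20 in the knockout-labelled arm.

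Dusp6, the phosphatase that switches off ERK as part of a feedback loop, had the smallest p-value of the lost falls. It fell in wild-type islets from 61.1 and 66.7 CPM to 11.4 and 17.3 CPM. In knockout-labelled islets it went from 43.2 and 32.8 CPM to 76.5 and 69.9 CPM, which did not pass the test by itself (log2 0.95, 95% interval 0.53 to 1.37, adjusted p = 0.0597). The difference was 3.10 (SE 0.28, adjusted p = 8.16e-05). Dusp6 was alone among 20 genes of ERK feedback and growth factor response. Spry2 and Spry4, other feedback inhibitors of that route, had differences of 1.08 and 0.32 (adjusted p of 0.181 and 0.761), and the median of the list was 0.16.

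The list of VEGF and angiopoietin signalling, through which vessel cells receive growth signals, also holds vascular peptides and their receptors. It had 9 called genes of 20 measured, all more positive in knockout-labelled islets, with a median difference of 1.34. Esm1, Apln, Edn1 and Ednrb, among the called genes, are not themselves VEGF or angiopoietin genes. The count ranged from 4 to 12 without 1 library, at 4 without knockout-labelled DMSO replicate 2 and at 5 without knockout-labelled DMSO replicate 1 or wild-type DMXAA replicate 1. In the wild-type arm 5 of the 20 passed as falls. Kdr, the main VEGF receptor, fell in wild-type islets from 166 and 185 CPM to 101 and 108 CPM (log2 -0.75, adjusted p = 0.0169). It rose in knockout-labelled islets from 115 and 116 CPM to 243 and 209 CPM (log2 0.97, adjusted p = 0.0151), and the groups did not overlap in either arm. The Kdr difference was 1.72 (SE 0.21, adjusted p = 0.000686). The VEGF receptor Flt1 and the coreceptor Nrp1 also rose in knockout-labelled islets (log2 1.04 and 1.09), whereas their wild-type estimates of -0.52 and -0.69 did not pass the test. Esm1, a secreted proteoglycan of endothelial tip cells, went from 159 and 151 CPM to 65.6 and 71.4 CPM in wild-type islets and from 118 and 99.9 CPM to 182 and 173 CPM in knockout-labelled islets (difference 1.88, SE 0.21, adjusted p = 0.000383).

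The largest called differences of this list were those of vascular peptides. Apln, the peptide apelin, went from 4.94 and 6.83 CPM to 0.645 and 1.4 CPM in wild-type islets and from 5 and 3.79 CPM to 10.2 and 6.78 CPM in knockout-labelled islets. Its difference was 3.48 (SE 0.52, adjusted p = 0.00349). Edn1, the constrictor endothelin, fell in wild-type islets from 8.3 and 10.6 CPM to 1.29 and 2.96 CPM and had 11.2 and 11 CPM and then 13.9 and 12 CPM in knockout-labelled islets (difference 2.37, SE 0.41, adjusted p = 0.01). The endothelin receptor Ednrb differed by 1.37 (SE 0.19, adjusted p = 0.00242). The ligand Vegfa, at 545 to 656 CPM in every library, had a difference of -0.29 (adjusted p = 0.746).

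Of 30 genes of endothelial identity, 12 were called, all more positive, and 29 differences were above 0 with a median of 0.96. The transcription factors Sox18, Ets1, Erg and Sox7 and the surface proteins Eng, Cd93 and S1pr1 were among the 12. Eng, a TGF-beta coreceptor, went from 149 and 185 CPM to 93.5 and 103 CPM in wild-type islets and from 146 and 141 CPM to 208 and 219 CPM in knockout-labelled islets (difference 1.33, SE 0.21, adjusted p = 0.00603). In the wild-type arm 6 of the 30 passed as falls. Esam, an adhesion molecule of endothelial junctions, was called, and the junction proteins Pecam1 and Cdh5 were not. Pecam1 was at 61.7 to 77.8 CPM in wild-type islets of either treatment, at 63.9 and 58 CPM in knockout-labelled DMSO and at 102 and 93.9 CPM in knockout-labelled DMXAA (difference 0.90, SE 0.20, adjusted p = 0.0538), and Cdh5 differed by 0.84 (adjusted p = 0.175). In the wild-type arm the estimates for Pecam1 and Cdh5 were -0.21 and -0.17, against -1.96 for Sox18 and -1.53 for Egfl7.

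The endothelial count depended on single libraries. It was 12 with all libraries and ranged from 1 to 13 over the 8 fits without 1 library. It was 1 without knockout-labelled DMSO replicate 2, 2 without wild-type DMXAA replicate 1, 4 without knockout-labelled DMSO replicate 1, 6 without wild-type DMXAA replicate 2 or knockout-labelled DMXAA replicate 1, and 7 without wild-type DMSO replicate 2. The calls of Eng and Cd93 were lost without wild-type DMXAA replicate 1 or either knockout-labelled DMSO library, Ets1 without knockout-labelled DMSO replicate 2, and S1pr1 without wild-type DMXAA replicate 1 or knockout-labelled DMSO replicate 2 (highest adjusted p of 0.0763, 0.0681, 0.0571 and 0.0987). The summed level of the 30 genes was 1073 and 1268 CPM under DMSO against 883 and 895 CPM after DMXAA in wild-type islets, and 1074 and 1004 CPM against 1503 and 1444 CPM in knockout-labelled islets. In bulk islets a change in the share of endothelial cells and a change of RNA per cell cannot be told apart, and the part of the endothelial share in the lost falls was not tested.

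Notch ligands of vessel cells were called as well, Jag1 and Dll4 out of 16 genes of Notch signalling, with 14 of the 16 differences above 0. Jag1 fell in wild-type islets from 20.8 and 20.1 CPM to 7.31 and 10.4 CPM and rose in knockout-labelled islets from 12.6 and 11.8 CPM to 31 and 22.9 CPM (difference 2.35, SE 0.31, adjusted p = 0.00128). Dll4, the ligand of tip cells, differed by 1.69 (SE 0.29, adjusted p = 0.00998) and lost its call without either wild-type DMXAA library or knockout-labelled DMSO replicate 2 (highest adjusted p = 0.0875). The receptors Notch1, Notch3 and Notch4 had differences of 0.86, 1.2 and 1.18 that did not pass (adjusted p of 0.347, 0.129 and 0.192).

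Several lost falls concerned ion channels, cell contacts and matrix. Kcnj2, an inward rectifier potassium channel, had the largest called positive difference, 4.76 (SE 0.48, adjusted p = 0.000398). It fell in wild-type islets from 22.1 and 22.4 CPM to 2.53 and 4.31 CPM and rose in knockout-labelled islets from 6.26 and 5.15 CPM to 32 and 15.4 CPM. Its DMSO levels were already apart (log2 -1.97, adjusted p = 0.0408), and the wild-type DMSO and knockout-labelled DMXAA libraries overlapped. Kcnk5, another potassium channel gene, differed by 2.46 (SE 0.33, adjusted p = 0.0015). Gja1, the gap junction protein connexin 43, went from 41 and 48.8 CPM to 10.8 and 17 CPM in wild-type islets and from 25.2 and 23.4 CPM to 60.7 and 43.7 CPM in knockout-labelled islets (difference 2.79, SE 0.31, adjusted p = 0.000405). It was the only one of 5 connexin genes that was called, and Gjd2, the connexin of beta cells, differed by 0.26 (adjusted p = 0.842). Thbs1, the matrix protein thrombospondin, fell from 219 and 197 CPM to 90 and 102 CPM in wild-type islets and rose from 131 and 121 CPM to 293 and 218 CPM in knockout-labelled islets (difference 2.14, SE 0.24, adjusted p = 0.000398). Chst1, a carbohydrate sulfotransferase, was lowest in wild-type DMXAA at 0.914 and 1.51 CPM and lay between 3.85 and 9.62 CPM in the other 6 libraries (difference 3.42, SE 0.47, adjusted p = 0.00187).

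Signalling genes outside these groups included Plk2, a kinase that p53 can induce, which fell from 50.8 and 63.1 CPM to 21.6 CPM in both wild-type DMXAA libraries. Plk2 was at 41.8 and 34.8 CPM and then 70.6 and 60.2 CPM in knockout-labelled islets (difference 2.17, SE 0.24, adjusted p = 0.000383). It was 1 of 2 called among 19 p53 targets, with Tnfrsf10b, the mouse receptor of TRAIL (difference 1.94, SE 0.33, adjusted p = 0.00892). The ligand Tnfsf10 was a lost rise and this receptor a lost fall, though the Tnfrsf10b call was lost without wild-type DMXAA replicate 2 or knockout-labelled DMSO replicate 1 (highest adjusted p = 0.0812). Bdkrb2, a bradykinin receptor, and Acvrl1, a BMP receptor of endothelium, differed by 2.30 and 1.82.

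In 12 of the 114 lost falls the 95% interval of the knockout-labelled effect held 0. Outside these 12 a rise in knockout-labelled islets was not established for most genes either, as 20 of the 114 passed the test there. Cxcr4, the receptor of Cxcl12, went from 17 and 16.9 CPM to 6.24 and 6.13 CPM in wild-type islets, and knockout-labelled islets had 21.7 and 20.1 CPM, then 18.9 and 21.5 CPM. Its knockout-labelled estimate was -0.049 (95% interval -0.42 to 0.33) and the difference 1.40 (SE 0.26, adjusted p = 0.0133). Klf10, a TGF-beta-inducible transcription factor, fell by 1 on the log2 scale in wild-type islets and had a knockout-labelled estimate of 0.18 (95% interval -0.15 to 0.51). The Klf10 call was lost without wild-type DMXAA replicate 1 or either knockout-labelled DMSO library (highest adjusted p = 0.164). Cxcr4 was picked out after its values were seen.

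**Figure D4:**
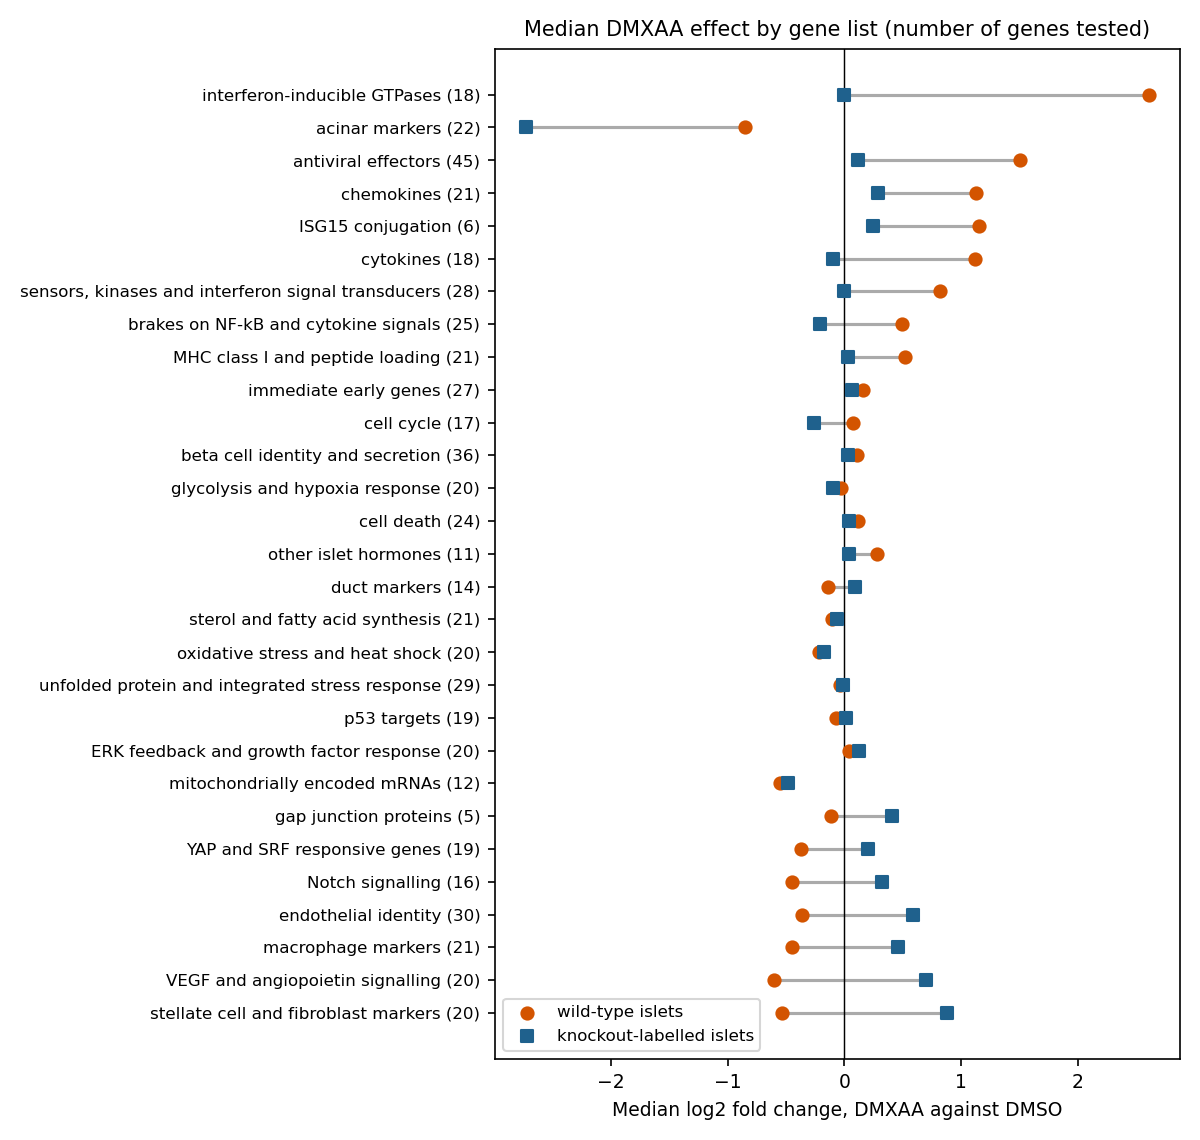
Median log2 fold change of each gene list with DMXAA in wild-type (circles) and knockout-labelled islets (squares), with the number of genes tested in brackets, leaving out lymphocyte markers and lists with fewer than 3 tested genes. Interferon-inducible GTPases and antiviral effectors lie at 2.61 and 1.51 in wild-type islets and near 0 in knockout-labelled ones, while VEGF, endothelial and stellate lists lie below 0 in wild-type and above 0 in knockout-labelled islets.

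Markers of the other cells in the samples moved with the groups. All 20 stellate cell and fibroblast markers had a difference above 0, with a median of 1.51, but 1, Col6a3, was called. This count was 0 to 5 over the fits without 1 library, 5 without wild-type DMSO replicate 2, 3 without wild-type DMXAA replicate 2, 4 under DESeq2 and 0 under limma-voom. Their summed level was 639 and 421 CPM under DMSO against 243 and 429 CPM after DMXAA in wild-type islets, and 319 and 307 CPM against 600 and 539 CPM in knockout-labelled islets. The wild-type groups overlapped and the knockout-labelled ones did not. Macrophage markers held 1 called gene of 21, Itgax, and 18 of the 21 differences were above 0, with sums of 187 and 135 CPM, then 120 and 124 CPM in wild-type islets, and of 172 and 167 CPM, then 165 and 280 CPM in knockout-labelled islets. Both calls were lost without wild-type DMXAA replicate 1 or either knockout-labelled DMSO library. That of Itgax was also lost without wild-type DMXAA replicate 2, and that of Col6a3 without wild-type DMSO replicate 1 or knockout-labelled DMXAA replicate 1 (highest adjusted p of 0.108 and 0.228). The part of these cells in the lost falls was not tested.

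All 22 acinar markers, enzymes of the surrounding exocrine tissue, had a difference below 0 and none was called (median -1.83). Some of them were called in fits without 1 library. Their sum was 7583 and 1591 CPM under DMSO against 1793 and 3317 CPM after DMXAA in wild-type islets, and 1848 and 2717 CPM against 519 and 472 CPM in knockout-labelled islets. With this sum as a covariate the interaction called 275 genes, 139 of them more negative, and 71 of the 90 lost rises and 85 of the 114 lost falls were called again, but the endothelial count went from 12 to 5. The count of stellate cell and fibroblast markers went from 1 to 10, all more positive, and that of interferon-inducible GTPases from 10 to 6. All 16 lymphocyte markers also had a difference below 0. They summed to 181 and 134 CPM in knockout-labelled DMSO and to 11.4 to 61.8 CPM in the other 6 libraries, and 8 of them fell in knockout-labelled islets. Their part in the lower knockout-labelled levels of Ifi209, Slfn1 and Cd69 was not tested.

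Because the arms share no library, genes chosen on the wild-type effect can be read in the knockout-labelled arm. In wild-type islets 189 genes rose (1.11%) and 64 fell (0.375%). The 189 had a median of 1.93 in wild-type islets, where they were chosen, and of 0.10 in knockout-labelled islets, with 114 estimates above 0 and 75 below. The 95% interval of the knockout-labelled effect ended short of 50% of the wild-type change in 120 of the 189 (63.5%). For the others the interval still allows a rise of that size. The interaction was called in 85 of the 189, and for the rest a response that differs by genotype label was not shown. The 64 that fell had a median of -1.25 in wild-type and 0.66 in knockout-labelled islets. There 60 estimates were above 0, against 49.8% of all genes tested. The interval ended short of 50% of the wild-type fall in 61 (95.3%), and the interaction was called in 54. Genes read in the same 4 libraries can move together, so these counts are a description and no test. With each arm fitted from its own 4 libraries, 28 genes fell in wild-type islets and 27 of these were above 0 in knockout-labelled islets (median 0.65). The 134 rises that had an estimate in both arms had a knockout-labelled median of 0.12.

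The reverse reading gave few genes. In knockout-labelled islets 28 genes rose (0.164%) and 36 fell (0.211%). Of the 28, 20 were lost falls, and 22 had a wild-type estimate below 0, against 8530 of all 17055 genes tested. The 36 that fell had a median of -4.27 in knockout-labelled and -1.89 in wild-type islets, and 8 had a group at 0 counts. Of these 36, 32 were also below 0 in wild-type islets and 3 were called in the interaction. These counts are unstable, as the 64 knockout-labelled calls became 2 to 113 over the fits without 1 library and 0 under limma-voom. Podxl, a sialomucin of the cell surface, was the only gene called in the same direction in both arms, with log2 fold changes of 1.03 and 0.93 and a difference of -0.10 (adjusted p = 0.927).

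Endocrine genes showed no called difference. None of 36 genes of beta cell identity and secretion and none of 11 other islet hormone genes passed (median differences -0.08 and -0.03). With 1.2% of all genes called, lists of this size may well hold none. With the acinar covariate, however, 2 of the 36 were called as more negative. Pax6, a transcription factor of islet cells, was at 313 to 387 CPM in all libraries, with a difference of -0.23 (SE 0.21, adjusted p = 0.809). Ins1 ranged from 30800 to 56000 CPM in wild-type libraries and from 35500 to 72400 CPM in knockout-labelled ones, and its difference of -0.49 (SE 0.42, adjusted p = 0.79) lay within that spread. Ins1 and Ins2 are near-copies, so reads may be split between them. Duct markers, mitochondrially encoded mRNAs, and genes of the cell cycle, glycolysis, oxidative stress and sterol synthesis held no called gene either. With the acinar covariate, the duct and oxidative stress lists each held 1 more positive gene. Some fits without 1 library gave calls in each list of this paragraph except cell cycle and sterol synthesis. A difference that did not pass is not shown to be absent.

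The calls that hold without any single library were 48 of the 90 lost rises and 25 of the 114 lost falls. Among the 48 were Oasl1, Ifit1, Ifit2, Ifit3, Rsad2, Cxcl10, Tnfaip3, Nfkbia, Ripk3 and Isg15. Among the 25 were Dusp6, Esm1, Plk2, Kcnj2, Thbs1, Gja1, Kdr, Jag1, Apln and Chst1. Of the other genes named, Mx2, Socs1, Slfn1, Cd69, Arhgap4, Ifi204, Flt1, Nrp1, Edn1, Sox18, Sox7, Erg, Egfl7, Esam, Cxcl12, Cxcr4, Cd38 and Prkd3 lost their call in at least 1 of the 8 fits. The lost rises kept at least 62.2% of their calls in any of the 8 fits, the lowest share being without knockout-labelled DMSO replicate 1. The lost falls kept 26.3% without knockout-labelled DMSO replicate 2, 36% without knockout-labelled DMSO replicate 1 and 35.1% without wild-type DMXAA replicate 1. In counts, the total of 204 became 92, 99 and 116 without these libraries, and the positive differences went from 114 to 30, 43 and 43, and to 71 without knockout-labelled DMXAA replicate 1. The negative differences went from 90 to 56 without knockout-labelled DMSO replicate 1 and to 143 without wild-type DMSO replicate 2.

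**Figure D5:**
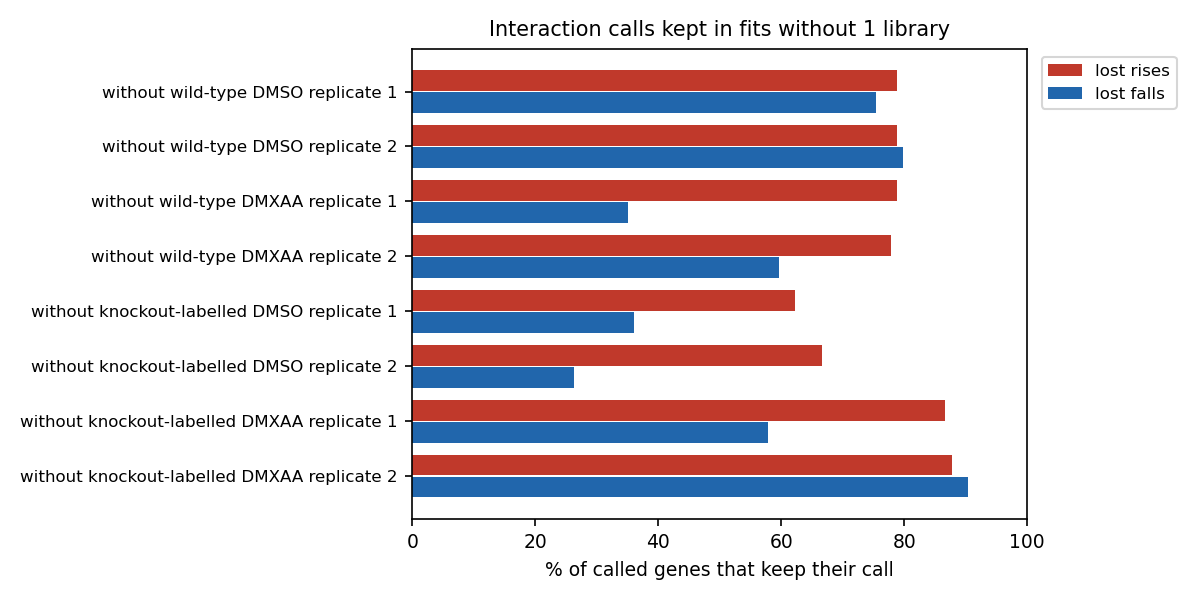
Percentage of the 90 lost rises (red) and 114 lost falls (blue) that were called again in each of the 8 fits without 1 library. The red bars lie between 62.2% and 87.8%, and the blue bars fall to 26.3% without knockout-labelled DMSO replicate 2.

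At the edge of the threshold stood Cd38 (difference 2.32, adjusted p = 0.0462), Prkd3 (1.56, adjusted p = 0.0466) and Arhgap4 (-2.99, adjusted p = 0.0478) on the inside. On the outside were Lrrc8c (1.35), Angpt2 (1.22) and Cx3cl1 (-1.72), each with an adjusted p of 0.0504.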

How the data were processed

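RNA-seq of 8 islet libraries was analysed from raw read counts per gene. Per the submitters' processing notes, HISAT2, HTSeq and mm10 were used to make the deposited counts. The sources used here do not give versions, annotation or strand setting, so reads of overlapping or antisense genes cannot be told apart. Labels give each library a group and a replicate number but not its mice, so p-values measure only the spread between these samples. Symbols came from the GENCODE M21 annotation for 54495 of 54532 identifiers, and 3 list genes with newer names, Sting1 among them, were matched through RefSeq synonyms.

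Counts were scaled by TMM, filtered by group with filterByExpr and fitted with 1 coefficient per group in edgeR 4.0.16 (R 4.3.3, quasi-likelihood, robust), leaving 4 residual degrees of freedom and a biological coefficient of variation of 17.1%. Adjusted p-values are Benjamini-Hochberg values over 17055 genes. DESeq2 1.42.0 and limma 3.58.1 served as alternatives. The test was checked on simulated counts with genes changed only in wild-type DMXAA. The interaction recovered 40 of 50 genes raised 4-fold and 37 of 50 lowered to 0.25 of their level. For genes raised 2-fold or lowered to 0.5 it recovered 18 and 8 of 50. Of 107 interaction calls there, 4 were false. Total counts of 15624020 to 19601850 limit genes of a few counts. Replicates differed by more than sampling noise, with a chi-square per degree of freedom of 7.41 to 59.8.

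Genes named are the 16 smallest p-values in each direction at a mean of at least 1 CPM, up to 4 called members of each of 31 gene lists, and 8 fixed genes. Others were picked after their values were seen. The comparison, the lists and the rules were chosen with earlier results of these data known. No set test was run.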

Additional observations from a re-analysis of the deposited data

Results flagged for a closer look

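In 23 of the 204 genes called in the interaction, the knockout-labelled effect passed the test as well, in the direction opposite to the wild-type estimate. They were 3 lost rises and 20 lost falls, and the wild-type effect passed too in 1 and 5 of them. The difference that chose the 204 contains the knockout-labelled estimate, so the selection favours the opposite direction, which is no separate evidence. Of all genes tested, 0.164% rose and 0.211% fell in knockout-labelled islets, and those calls were unstable over the fits without 1 library. Of the 23, 7 without a group at 0 counts were named by the fixed rule. Ifi209 fell in knockout-labelled and rose in wild-type islets, with a difference of -6.58 on the log2 scale. The other 6 of the 7 were higher with DMXAA in knockout-labelled and lower in wild-type islets, with differences of 4.76 for Kcnj2, 2.14 for Thbs1, 1.72 for Kdr, 2.53 for Dlc1, 2.35 for Jag1 and 1.66 for Cd93. The wild-type fall of Cd93 did not pass the test by itself (adjusted p = 0.276). Knockout-labelled DMSO was below wild-type DMSO in the mean of all 6 of these, which the selection also favours. The adjusted p of that genotype difference was 0.0408 for Kcnj2 and over 0.05 for the other 5. Flt1, Nrp1 and Arhgap4, named after their values were seen, had differences of 1.55, 1.78 and -2.99, and their wild-type estimates did not pass (adjusted p of 0.308, 0.189 and 0.844). Ighg2c, also named by the rule, is among the 23 as well, but has a group at 0 counts, so no fold change is given.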

How the results depend on the processing

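The 204 interaction calls stayed between 178 and 280 under other scalings, filters, the older edgeR test, limma-voom, the acinar covariate and a minimum log2 difference of 1. DESeq2 called 312, 140 more negative and 172 more positive, and the acinar covariate gave 139 more negative. Replicate numbers did not deviate together (correlations -0.135 to 0.111), and with a replicate block the interaction called 217 genes, or 246 with the block within genotype label. Over the fits without 1 library it called 92 to 266, more negative 56 to 143 and more positive 30 to 139. The wild-type effect (253 genes) ranged from 154 to 957, higher 125 to 546 and lower 19 to 411. Wild-type falls were 102 under DESeq2 and 28 from the wild-type libraries alone. The knockout-labelled effect (64 genes) ranged from 2 to 113, higher 0 to 48 and lower 2 to 65. Knockout-labelled calls were 177 (93 higher, 84 lower) without a filter, 0 (0 and 0) under the stricter filter and limma-voom, 29 (16 and 13) under the older test, 154 (94 and 60) under DESeq2, 4 (4 and 0) with the acinar covariate, and 129 (49 and 80) from those libraries alone. Higher ones were 45 with the replicate block within genotype label and 14 at a log2 change of at least 1. No gene that was named by the rule and called in the interaction changed sign in any setting. Gcg, Ins2 and Sting1, close to 0 and not called, did. For genes picked after their values were seen, signs over the settings were not tabulated. Causes were not tested.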
